A study of Homo sapiens with 8 samples.

Results

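The SNF2-family ATPases of chromatin remodelling complexes are described here in tumours that lack one of them. The 10 genes were taken by symbol: SMARCA4 and SMARCA2 of SWI/SNF, SMARCA1 and SMARCA5 of ISWI, CHD3 and CHD4 of NuRD, INO80, SRCAP and EP400 of the INO80-type complexes, and SMARCAD1. All 10 were found among the 59050 gene symbols of the count files, and all 10 passed the filter on low counts that left 16219 genes to test. RNA was sequenced from xenografts (tumours grown in mice) of the established lung cancer cell line H2122, of human origin. The 4 parental tumours carry the genotype label WT, the 4 others the label SMARCA4 KO, and all 8 received vehicle. The age, sex and strain of the mice, and whether the knockout cells are 1 clone, are not given in the sources used here. The labels do not say that the tumours of a group came from separate animals, so p-values measure the spread between these samples.

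SNF2-family enzymes use the energy of ATP to slide, evict or exchange nucleosomes, and many work as the motor of a larger complex. SMARCA4 (BRG1) and SMARCA2 (BRM) are alternative motors of SWI/SNF, so that a given complex holds one or the other. ISWI enzymes space nucleosomes, and the CHD3 and CHD4 motors of NuRD work beside histone deacetylases. The INO80-type enzymes are linked to the histone variant H2A.Z in nucleosomes. SMARCA4 is a recurrent target of inactivating mutations in lung cancer, and dependence of such cells on SMARCA2 is well known.

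Because paralogs can exchange reads, the longest identical coding run of each paralog pair is shown, in capitals, with 12 flanking bases on each side in lower case. Sequences are from GENCODE 29 transcripts on GRCh38, 5′ to 3′ on the coding strand, and each lies within 1 coding exon.
SMARCA4 (chr19:10991252-10991301, plus strand): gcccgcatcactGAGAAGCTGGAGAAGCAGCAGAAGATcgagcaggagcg
SMARCA2 (chr9:2056774-2056823, plus strand): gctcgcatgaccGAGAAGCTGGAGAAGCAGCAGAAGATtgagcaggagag
SMARCA5 (chr4:143521453-143521508, plus strand): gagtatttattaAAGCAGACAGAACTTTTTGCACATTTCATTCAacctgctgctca
SMARCA1 (chrX:129516418-129516473, minus strand): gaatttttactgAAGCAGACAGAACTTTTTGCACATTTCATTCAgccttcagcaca
CHD4 (chr12:6591923-6591983, minus strand): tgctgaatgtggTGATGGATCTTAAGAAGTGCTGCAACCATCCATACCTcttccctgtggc
CHD3 (chr17:7900926-7900986, plus strand): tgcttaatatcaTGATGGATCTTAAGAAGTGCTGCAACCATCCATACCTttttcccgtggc
The runs were 26 bases for SMARCA4 and SMARCA2, 32 for SMARCA5 and SMARCA1 and 37 for CHD4 and CHD3. Aligned coding bases were 73.1%, 74.1% and 71.8% identical in these pairs, against 55.6% for SMARCA4 and CHD4. No pair of the 10 genes shared a word of 50 bases in any annotated transcript. EP400 stood apart in another way: 4.27% of its 50-base words also occur in transcripts of genes elsewhere, 792 of the 804 in the pseudogene EP400P1. The read length is not given in the sources used here.

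Annotation overlap concerns 2 of the genes above all. In GENCODE 29, 76.0% of the merged exon bases of SRCAP and 53.5% of those of CHD4 also lie in exons of another gene, against at most 13.5% for the other 8. Most of the SRCAP overlap is with AC106886.5, which held 152 parental and 126 knockout counts in all, and most of the CHD4 overlap is with AC006064.6, which held 0 counts in all 8 libraries. Reads in bases shared by genes can be set aside as ambiguous, and such reads made up 3.98% to 4.31% of each library. Their part in the low levels of SRCAP and CHD4 was not tested, and the levels of these genes are uncertain.

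The libraries held 19785922 to 23191698 gene counts in parental and 20662882 to 21981123 in knockout tumours. Epithelial markers (EPCAM, KRT7, KRT8, KRT18, KRT19 and CDH1) were abundant in all 8, with a summed level of 5747 to 6918 CPM (the unit used below, a count scaled by library size after TMM normalization) in parental and 4627 to 6227 CPM in knockout tumours. Of 3 lung lineage markers, NKX2-1 had 0 counts in every library, SFTPB 2 to 8 and NAPSA 16 to 26. NAPSA, the only one tested, was not called (log2 fold change 0.23, edgeR adjusted p = 0.555). Leukocyte markers (8 genes) summed to 7.26 to 67.7 CPM in parental and 12.3 to 29.4 CPM in knockout tumours, and fibroblast markers (8 genes) to 179 to 606 and 342 to 602 CPM, mostly from COL1A1. Of the epithelial markers, KRT19 (log2 fold change -1.01, edgeR adjusted p = 8.48e-05) and KRT7 (-0.71, 0.000333) fell and the other 4 did not pass the test. None of 6 tested leukocyte markers passed, while 1 of 4 tested fibroblast markers rose (LUM, 5.00, edgeR adjusted p = 1.98e-06) and 1 of 2 tested endothelial markers fell (VWF, -2.37, edgeR adjusted p = 0.000410). Their part in the results below was not tested. Endothelial markers (5 genes) summed to 7.24 to 18.0 and 8.67 to 15.2 CPM, and skeletal muscle markers (7 genes) to 0.134 to 33.6 and 0.0974 to 15.1 CPM. Counts by human gene symbol do not show whether reads of leukocyte, fibroblast, endothelial or muscle markers came from tumour cells or mouse host cells. In bulk tumours, fewer cells of a type and less RNA per cell cannot be told apart either.

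SMARCA4, the targeted gene (ENSG00000127616, chromosome 19, 10960825 to 11079426, plus strand), checks the labels. It was at 220, 228, 198 and 235 CPM in parental tumours 1 to 4. In knockout tumours 1 to 4 it was at 29.5, 26.1, 22.3 and 31.0 CPM. No library went against its label, and the knockout libraries still held 478 to 666 reads of the gene. The log2 fold change was -3.02 (SE 0.117, 95% interval -3.27 to -2.76, edgeR adjusted p = 1.45e-07), and only 1.36% of the tested genes changed by more. Gene-level counts do not show where in the transcript the remaining reads lie.

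SMARCA2 (ENSG00000080503, chromosome 9, 1980290 to 2193624, plus strand) was modestly higher in knockout tumours. It was at 47.5, 52.9, 45.1 and 41.3 CPM in parental tumours 1 to 4 and at 58.0, 62.4, 58.6 and 54.1 CPM in knockout tumours 1 to 4. The lowest knockout tumour lay just above the highest parental one. The log2 fold change was 0.32 (SE 0.0936, 95% interval 0.11 to 0.53, edgeR adjusted p = 0.0261), and 41.2% of all tested genes changed by more in either direction. The adjusted p passed 0.05 in the fits without parental tumour 1 (0.0580), 3 (0.0597) or 4 (0.0558) and without knockout tumour 1 (0.0603), 2 (0.0789) or 3 (0.0640), and stayed under it without parental tumour 2 or knockout tumour 4.

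The summed level of both SWI/SNF motors was lower in every knockout tumour although SMARCA2 rose. On the RPKM scale, which is CPM divided by the kilobases of merged exon, both together summed to 16.5 ± 1.05 in the parental and to 4.86 ± 0.207 in the knockout group (SD, n = 4 each), so 29.5% of the parental level was left. SMARCA2 made up 15.5%, 16.4%, 16.2% and 13.0% of that sum in parental tumours 1 to 4. In knockout tumours 1 to 4 it made up 62.5%, 66.9%, 69.1% and 59.7%. With the longest transcript as the length, the mean shares were 14.8% and 63.8%. SMARCA2 was thus the minor SWI/SNF motor transcript in every parental tumour and the major one in every knockout tumour, mainly through the loss of SMARCA4 reads.

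**Figure D1:**
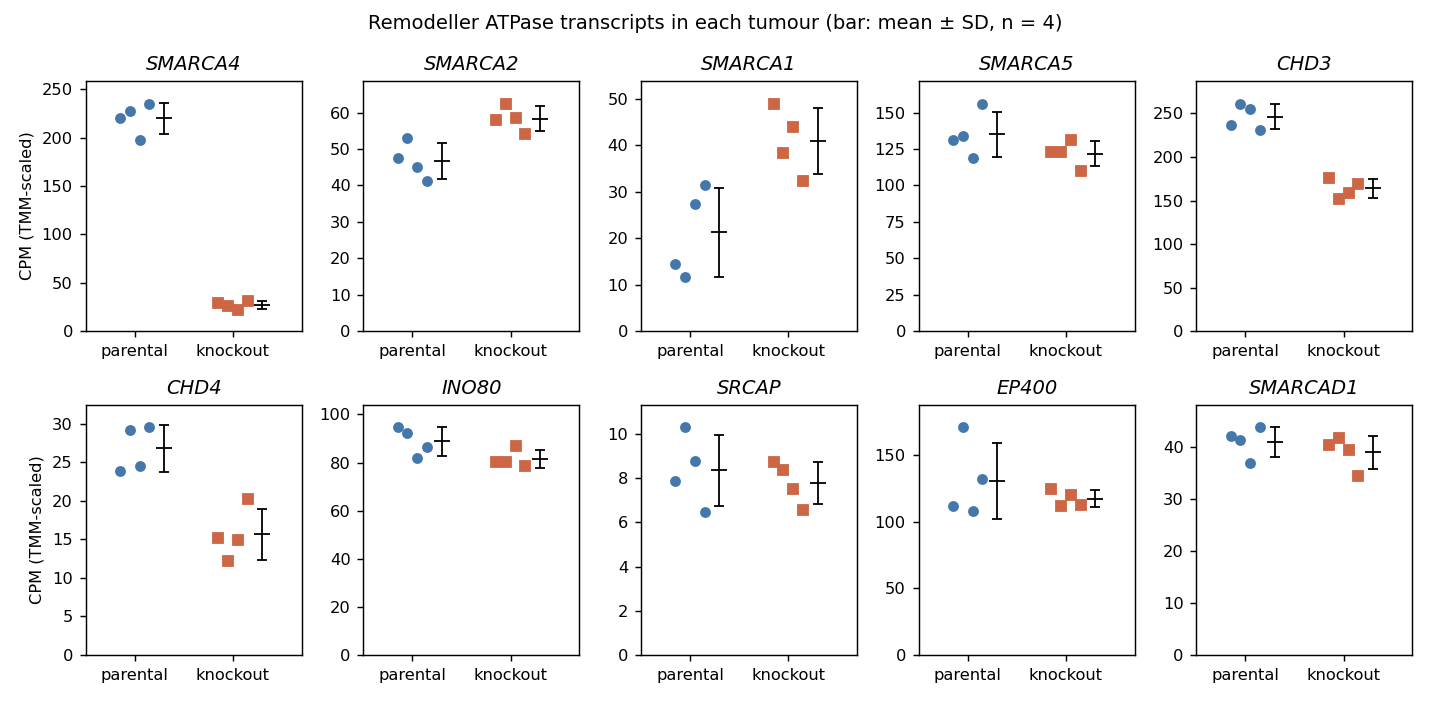
Each panel plots the CPM of 1 ATPase gene, from 0, in the 4 parental tumours (circles) and the 4 knockout tumours (squares), with mean and SD beside each group. SMARCA4, CHD3 and CHD4 are lower and SMARCA2 and SMARCA1 higher in all 4 knockout tumours; the other 5 genes overlap, and 29.3% of all tested genes have groups that do not overlap.

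The 2 ISWI motors differed from each other. SMARCA1 (SNF2L; ENSG00000102038, chromosome X, 129446501 to 129523500, minus strand) was at 14.5, 11.7, 27.3 and 31.4 CPM in parental tumours 1 to 4 and at 48.9, 38.4, 43.8 and 32.3 CPM in knockout tumours 1 to 4. The parental tumours varied widely, with a coefficient of variation of 45.2%, and the highest of them nearly reached the lowest knockout tumour. The log2 fold change was 0.94 (SE 0.274, 95% interval 0.34 to 1.54, edgeR adjusted p = 0.0254). The adjusted p was 0.0753 without parental tumour 1, 0.0714 without knockout tumour 1 and 0.0607 without knockout tumour 3.

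SMARCA5 (SNF2H, the more abundant ISWI motor here; ENSG00000153147, chromosome 4, 143513463 to 143557486, plus strand) was at 131, 134, 119 and 156 CPM in parental and at 123, 123, 131 and 110 CPM in knockout tumours 1 to 4. The groups overlapped. Its log2 fold change was -0.15 (95% interval -0.36 to 0.06, edgeR adjusted p = 0.287), so a fall of up to 0.36 on the log2 scale is within the interval. The log2 ratio of SMARCA1 to SMARCA5 counts within a library was -2.78 ± 0.673 for parental and -1.59 ± 0.189 for knockout libraries (SD, n = 4 each), with no overlap.

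Both NuRD motors fell. CHD3 (ENSG00000170004, chromosome 17, 7884806 to 7912760, plus strand) was at 237, 261, 255 and 231 CPM in parental tumours 1 to 4 and at 176, 152, 159 and 169 CPM in knockout tumours 1 to 4. Variation within each group was small, at 5.82% and 6.32% of the mean. The log2 fold change was -0.59 (SE 0.0820, 95% interval -0.77 to -0.41, edgeR adjusted p = 0.000322).

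CHD4 (ENSG00000111642, chromosome 12, 6570082 to 6614524, minus strand) was at 23.9, 29.2, 24.5 and 29.5 CPM in parental tumours 1 to 4. In knockout tumours 1 to 4 it was at 15.2, 12.2, 14.9 and 20.2 CPM, all below the parental range. The log2 fold change was -0.78 (SE 0.149, 95% interval -1.10 to -0.45, edgeR adjusted p = 0.00256). Only the reads that counting assigned to CHD4 enter these values, and the overlap with AC006064.6 given above applies to both groups. Whether it bears on both groups alike was not tested. The log2 ratio of CHD3 to CHD4 overlapped between the groups, at 3.21 ± 0.182 for parental and 3.41 ± 0.251 for knockout libraries (SD, n = 4 each). Both falls were called in every alternative fit, including each that left out 1 tumour.

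No INO80-type motor passed the test. INO80 (ENSG00000128908, chromosome 15, 40978880 to 41116354, minus strand), which slides nucleosomes and acts on H2A.Z, was at 94.6, 92.5, 81.7 and 86.3 CPM in parental and at 80.2, 80.2, 86.8 and 78.5 CPM in knockout tumours 1 to 4. The groups overlapped through parental tumours 3 and 4 and knockout tumour 3, and the log2 fold change was -0.12 (95% interval -0.30 to 0.05, edgeR adjusted p = 0.279).

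EP400 (ENSG00000183495, chromosome 12, 131949920 to 132081102, plus strand), the motor of the TIP60 acetyltransferase complex, was at 112, 171, 108 and 132 CPM in parental and at 125, 112, 120 and 113 CPM in knockout tumours 1 to 4. Parental tumour 2 was the high one, and the log2 fold change of -0.16 (95% interval -0.45 to 0.14, edgeR adjusted p = 0.433) was -0.00 without it. The pseudogene EP400P1, which shares words with EP400, was itself higher in knockout tumours (1509 parental and 2020 knockout counts, log2 fold change 0.43, edgeR adjusted p = 0.0249), a call lost without parental tumour 1 (0.0679), parental tumour 4 (0.0583) or knockout tumour 4 (0.0595). How reads divide between these copies is uncertain.

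SRCAP (ENSG00000080603, chromosome 16, 30698209 to 30741409, plus strand), which deposits H2A.Z, was the least counted of the 10, at 7.86, 10.3, 8.78 and 6.49 CPM in parental and 8.72, 8.37, 7.50 and 6.57 CPM in knockout tumours 1 to 4. The groups lay over one another, and the log2 fold change of -0.10 had the widest interval among the genes not called, -0.46 to 0.26 (edgeR adjusted p = 0.697), and was 0.01 without parental tumour 2. SMARCAD1 (ENSG00000163104, chromosome 4, 94207611 to 94291292, plus strand), an enzyme linked to heterochromatin upkeep and DNA end resection, was at 42.0, 41.2, 36.8 and 43.7 CPM in parental and 40.4, 41.6, 39.3 and 34.4 CPM in knockout tumours. It had the smallest change of the 10, -0.07 (95% interval -0.28 to 0.13, edgeR adjusted p = 0.604).

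**Figure D2:**
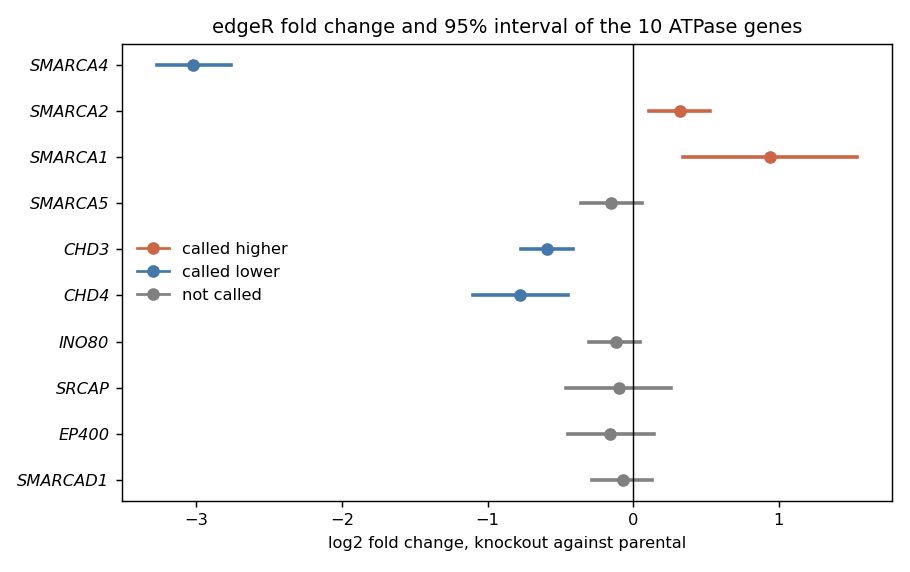
Points are edgeR log2 fold changes of knockout against parental tumours (n = 4 each) and lines their 95% intervals. SMARCA4 is far from the rest at -3.02, CHD3, CHD4, SMARCA2 and SMARCA1 have intervals that leave out 0, and the intervals of the other 5 hold 0.

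In all, 5 of the 10 genes passed the test, 3 lower and 2 higher, where 27.0% of all tested genes passed, 14.1% lower and 13.0% higher. One of the 5 is the targeted gene. The number was 3, with 0 higher, without parental tumour 1, knockout tumour 1 or knockout tumour 3. The groups did not overlap for the same 5, against 29.3% of all tested genes. The median log2 fold change of the 10 was -0.14, beside 0.00 over all genes tested, and their median absolute change was 0.24, beside 0.25.

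SMARCA2 was then set against the ATPases of other families as a ratio of counts within each library, which does not depend on how libraries are scaled. The log2 ratio was higher in all 4 knockout tumours than in any parental tumour for 7 of the 8 ATPases (exact two-sided permutation p = 0.0286 each, the smallest that 4 against 4 allows, and 0.0327 after Benjamini-Hochberg adjustment over the 8 ratios). All 8 share SMARCA2, whose own CPM did not overlap between the groups, and are not independent. The 7 are therefore not separate results about the other families. The share of all tested genes whose ratio to SMARCA2 would separate the groups in this way was not computed. The differences ran from 0.40 against SMARCAD1 to 0.91 against CHD3 and 1.12 against CHD4, which had themselves fallen. Against SMARCA5 the ratio was -1.47, -1.34, -1.40 and -1.92 in parental and -1.09, -0.98, -1.16 and -1.03 in knockout tumours 1 to 4, a difference of 0.47. Against INO80 it rose by 0.45, against EP400 by 0.46 and against SRCAP by 0.41. SMARCA1 was the exception: the ratio overlapped between the groups, at 1.25 ± 0.833 and 0.53 ± 0.237 (SD, n = 4 each, exact two-sided permutation p = 0.200). The ratio of SMARCA4 to each other ATPase was lower in every knockout tumour, with differences of -2.23 (CHD4) to -4.07 (SMARCA1) on the log2 scale.

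**Figure D3:**
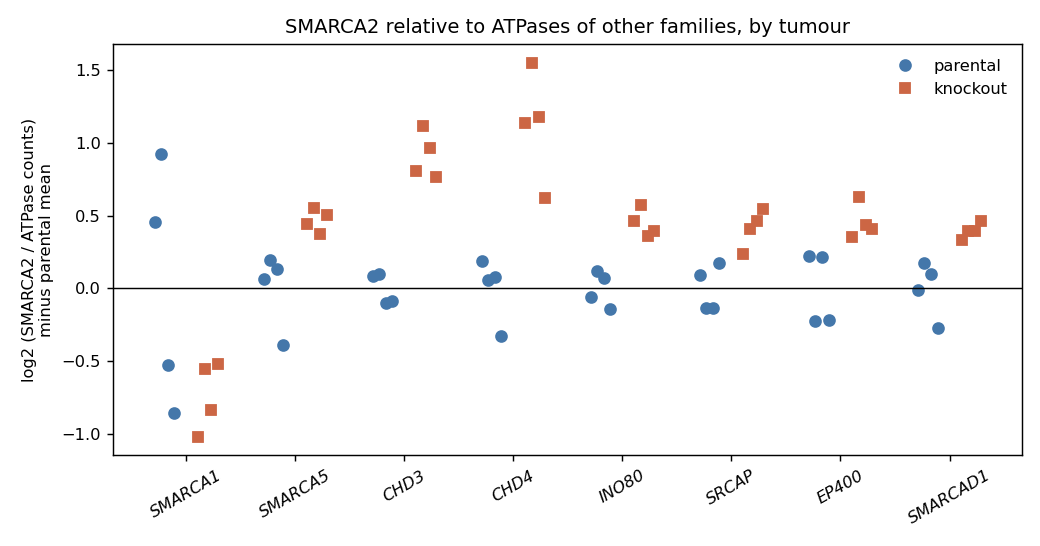
Each point is the log2 ratio of SMARCA2 counts to those of the ATPase named on the x axis in 1 tumour, minus the parental mean of that ratio. Knockout tumours (squares) lie above all parental tumours (circles) for 7 ATPases, and the groups overlap for SMARCA1.

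Levels can be compared between genes only per length. Per kilobase of merged exon, parental tumours were ordered CHD3 (25.2 ± 1.47 RPKM), SMARCA5 (16.1 ± 1.82), SMARCA4 (14.0 ± 1.01), INO80 (12.7 ± 0.835), EP400 (6.99 ± 1.55), SMARCAD1 (6.48 ± 0.466), SMARCA1 (4.86 ± 2.20), SMARCA2 (2.51 ± 0.263), CHD4 (2.11 ± 0.236) and SRCAP (0.611 ± 0.117; SD, n = 4 each). CHD3, SRCAP and the step from INO80 to EP400 were separated from their neighbours by range over the 4 parental tumours. The ranges of all other neighbours overlapped, although within each parental tumour SMARCA5 was above SMARCA4 and SMARCA4 above INO80. In knockout tumours SMARCA4 stood at 1.73 ± 0.247 RPKM, below SMARCA2 at 3.13 ± 0.181, and SMARCA1 at 9.36 ± 1.64 had passed EP400 and SMARCAD1.

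The order depended on the length used. SMARCA4 has 54 annotated transcripts, and its merged exons (15778 bases) are far longer than its longest transcript (5791 bases). With the longest transcript as the length, SMARCA4 was first in parental tumours at 38.1 ± 2.76 RPKM, ahead of CHD3 at 33.5 ± 1.95. Per kilobase of exon free of other genes, CHD4 was at 4.52 ± 0.506 RPKM in parental tumours and so passed SMARCA2 (2.57 ± 0.269). SRCAP was at 2.54 ± 0.485 RPKM there, and its range (1.98 to 3.13) overlapped that of SMARCA2 (2.27 to 2.91). By this length, SMARCA4 in knockout tumours (1.74 ± 0.249 RPKM) was below SRCAP (2.37 ± 0.293).

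**Figure D4:**
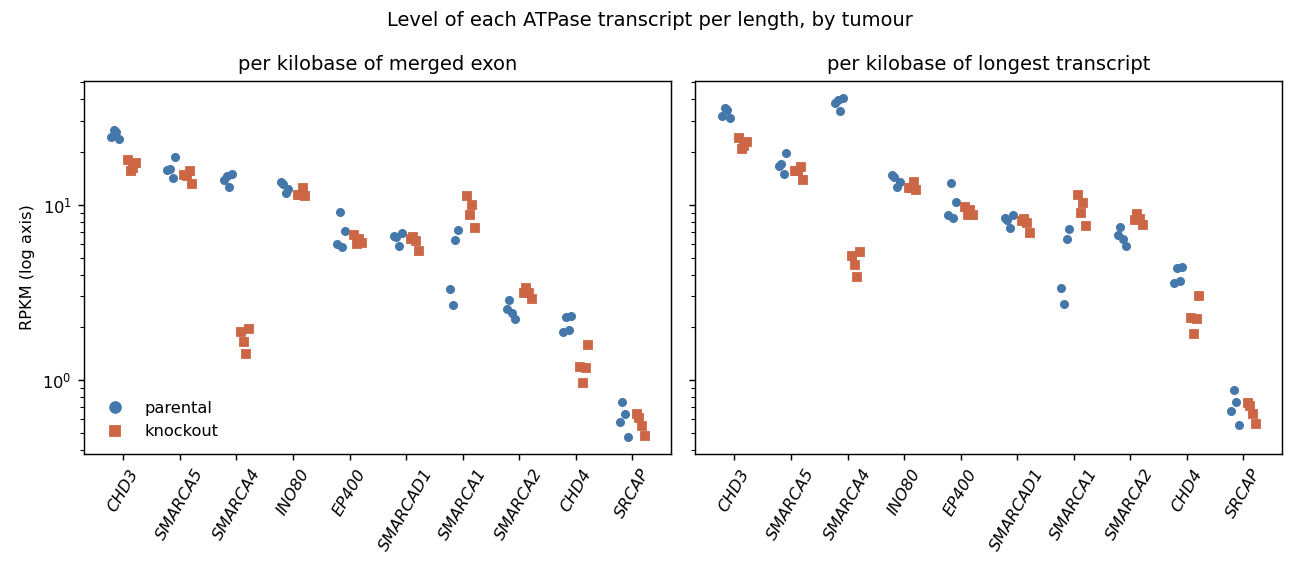
RPKM of each ATPase transcript on a log axis, in parental (circles) and knockout (squares) tumours, per kilobase of merged exon (left) or of the longest transcript (right). In both panels SMARCA4 drops from among the highest levels to near the lowest, and SRCAP is lowest.

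Subunits that work with these motors were examined next. Of 78 tested partner genes, 19 (24.4%) passed the test, 16 lower and 3 higher, near the share of all genes, and 12 passed without knockout tumour 1. Among NuRD partners, 5 of 12 were lower and 0 higher, with a median log2 fold change of -0.20; 41.7% passed, against 27.0% of all genes. The histone deacetylase HDAC2 fell from 132 ± 16.0 to 98.1 ± 2.78 CPM (SD, n = 4 each, log2 fold change -0.43, edgeR adjusted p = 0.00584). The methyl-CpG binding protein gene MBD2 (-0.38) and the scaffold genes GATAD2A (-0.33) and MTA2 (-0.30) fell as well, with edgeR adjusted p-values of 0.00899, 0.00929 and 0.0145 (0.0521 for MTA2 without knockout tumour 2). The lower levels of CHD3 and of the reads assigned to CHD4 were thus accompanied by lower levels of 5 of the 12 NuRD partners. The others were not called, among them MTA1 (0.09), MTA3 (0.01), MBD3 (0.01) and CDK2AP1 (0.03), which did not fall.

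Among ISWI partners 3 of 13 were lower and 0 higher, a share of 23.1% that is near the 27.0% of all genes. BAZ1A, the partner of SMARCA5 in the ACF complex, fell from 130 ± 13.7 to 97.5 ± 6.37 CPM (SD, n = 4 each, log2 fold change -0.42, edgeR adjusted p = 0.00641), and RSF1, its partner in the RSF complex, fell by 0.42 (adjusted p = 0.0131). CHRAC1, a histone-fold subunit, had -0.33 (adjusted p = 0.0416), a call that was lost in 6 of the 8 fits without 1 tumour (adjusted p up to 0.112, without knockout tumour 1) and held without parental tumour 2 or knockout tumour 2. SMARCA5 itself was not called.

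Among INO80 partners 2 of 14 were higher and 2 lower (28.6%, near the 27.0% of all genes). The actin-related protein gene ACTR5 rose from 14.1 ± 0.971 to 19.8 ± 1.21 CPM (SD, n = 4 each, log2 fold change 0.50, edgeR adjusted p = 0.00319) and INO80C by 0.63 (adjusted p = 0.0136). ACTL6A (-0.41, adjusted p = 0.0318) and the AAA+ ATPase gene RUVBL2 (-0.31, adjusted p = 0.0441), which are subunits of several complexes, fell. Their calls were lost in 5 and 6 of the 8 fits without 1 tumour, with adjusted p-values of up to 0.0904 (without knockout tumour 1) and 0.129 (without knockout tumour 2). SRCAP and EP400 partners had 4 of 21 lower and 0 higher (19.0%, against 27.0% of all genes), ACTL6A and RUVBL2 among them, with the TIP60 complex genes MEAF6 at -0.39 and EPC2 at -0.38 (adjusted p = 0.0120 and 0.0223). The EPC2 call was lost without parental tumour 1 (0.0523) or knockout tumour 1 (0.0681).

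Of 24 tested SWI/SNF partners, 5 were lower and 1 higher (25.0%, near the 27.0% of all genes), with a median of -0.03. SMARCD2 (-0.47, edgeR adjusted p = 0.00133), DPF2 (-0.51, 0.00160) and the core subunit gene SMARCC1 (-0.39, 0.0157, and 0.0535 without knockout tumour 1) fell. PHF10, a subunit of the PBAF form, rose by 0.37 (adjusted p = 0.00661). In the rest of the SNF2 family, 2 of 21 tested genes were called (9.52%, against 27.0% of all genes), both lower: CHD6 fell from 72.4 ± 17.9 to 42.0 ± 4.95 CPM (SD, n = 4 each, log2 fold change -0.78, adjusted p = 0.00328) and CHD8 by 0.32 (adjusted p = 0.0479). The CHD8 call held only without parental tumour 1 or 3 when 1 tumour was left out, and the number called ran from 1 to 5, the most without parental tumour 3.

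**Figure D5:**
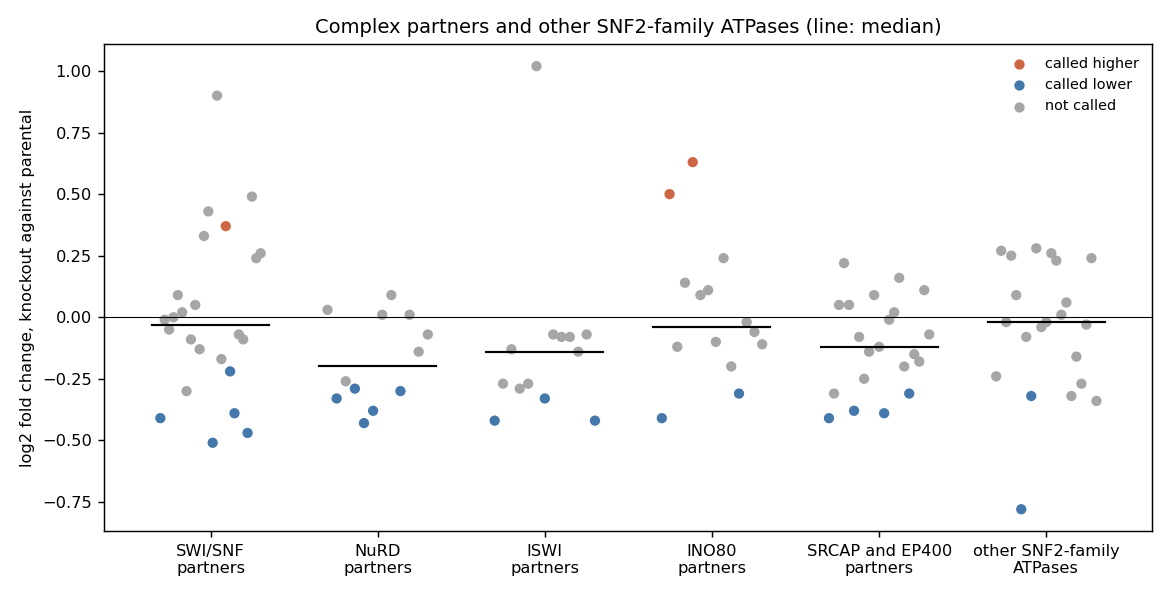
Each point is the edgeR log2 fold change of 1 tested partner gene or other SNF2-family ATPase, with the median of each list as a line; a gene in several lists is drawn in each. NuRD partners lie mostly below 0, with 5 called lower and 0 higher, and the other SNF2-family ATPases centre on -0.02.

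Other genes followed the profile of the SWI/SNF motors across the 8 libraries, among 10322 tested genes whose log2 CPM averaged 3 or more. The closest to SMARCA4 were FAM174B (Pearson r = 0.994), BTBD11 (0.993) and PKP4 (0.993), which fell by 1.93, 1.93 and 1.01 on the log2 scale. The closest to SMARCA2 were ARID3B (0.978), HLA-V (0.976) and KLF11 (0.975), which had log2 fold changes of 0.91, 1.01 and 0.43. The KLF11 call (edgeR adjusted p = 0.0370) was lost in 6 of the 8 fits without 1 tumour, with an adjusted p of up to 0.100 (without knockout tumour 2). These are descriptions over libraries that fall into the 2 genotype groups. The 4 parental tumours alone gave r of 0.0593 for FAM174B, 0.311 for BTBD11 and 0.870 for PKP4 with SMARCA4. With SMARCA2 they gave 0.982 for ARID3B, 0.944 for HLA-V and 0.979 for KLF11. The genes were picked by r over all 8 libraries, the parental ones included, so these parental values are not independent of the choice.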

How the data were processed

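RNA was sequenced from 4 parental and 4 SMARCA4 knockout H2122 xenografts, with genotype and replicate number read from each sample title. Each deposited file lists, for 1 tumour, unnormalized counts of reads by gene symbol. The submitters' processing notes list TopHat2 2.1.1, HTSeq 0.11.0 and hg38; the annotation release, strand setting and any removal of mouse reads are not given in the sources used here. Host reads that resemble human transcripts can therefore be counted as human. The 5 summary lines of each file entered neither library sizes nor tests; 79.1% to 85.2% of each library was assigned to genes. Every pair of libraries differed by more than sampling noise (chi-square per degree of freedom of at least 8.21).

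Genes were kept by filterByExpr (minimum count 10, minimum total 15), scaled by TMM and tested with edgeR 4.0.16 (R 4.3.3) (quasi-likelihood F-test, genotype as the only term), with Benjamini-Hochberg adjustment over 16219 genes and a threshold of 0.05; the procedure was tested on simulated data. Lengths and positions are from GENCODE 29, matched by symbol (95.5% of symbols). Alternatives were DESeq2 1.42.0, limma-voom (limma 3.58.1), 3 other scalings, library sizes without the 10 most abundant genes, 2 other filters, a replicate block and leaving out each tumour. All 10 ATPase genes are named. Other genes are the up to 4 called genes with the smallest p per list, and the 3 genes most correlated with SMARCA4 and with SMARCA2; marker genes were listed by cell type. The members and lists were chosen with earlier results of these data known. One listed SWI/SNF partner was not analysed here, and 3 listed genes did not pass the filter.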

Additional observations from a re-analysis of the deposited data

How the results depend on the processing

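Over 9 other fits on all 8 tumours and 8 fits that left out 1 tumour, 159 of 170 member results kept their direction and their side of the threshold. SMARCA4, CHD3 and CHD4 were called lower in each, with SMARCA4 at -3.08 to -2.93 when 1 tumour was left out. SMARCA2 had an edgeR adjusted p of 0.0601 (log2 fold change 0.30) when all 33657 genes with a count were kept. In that fit SMARCA1 had an adjusted p of 0.00130, and 4902 genes were called in all. With 1 tumour left out, SMARCA2 had log2 fold changes of 0.26 to 0.38 (adjusted p 0.00977 to 0.0789). The number of members called was 3 to 5 when 1 tumour was left out; those called higher numbered 0 to 2, and 1 when all genes with a count were kept. Partner genes called numbered 12 (without knockout tumour 1) to 20 and other SNF2-family ATPases 1 to 5 (the most without parental tumour 3) when 1 tumour was left out; the latter were 1 with the CPM filter and 1 with limma-voom. The cause of these shifts was not tested. Of the 26 other named genes, 17 were called in every fit, and 398 of 442 of their results kept direction and side of the threshold. Leaving out 1 tumour cannot make separate groups overlap, so it is no check on the 7 of 8 SMARCA2 ratios free of overlap. The ratio to SMARCA1 overlapped whichever tumour was left out. Replacing merged exons by the longest transcript moved 5 members in the parental order of levels, and exon length free of other genes, chosen after seeing the data, moved 2. Tumours were matched by replicate number, which differs from another number in the title of 1 parental tumour. Same-numbered tumours did not deviate together (r of -0.0431, -0.0217, -0.187 and 0.0863). These values show no sign of pairing by number but cannot exclude a paired design. With the replicate block 3871 genes were called in place of 4385, and no member call changed. SMARCA4 was then at -3.02 and SMARCA2 at 0.32 (edgeR adjusted p = 0.0261). CHD8 (adjusted p = 0.102), CHRAC1 (0.101) and EP400P1 (0.0639) were not called with the block. With upper-quartile scaling CHD8 (0.0701), CHRAC1 (0.0551) and RUVBL2 (0.0798) were not called. SRCAP, with 141 to 211 reads per library, was not called in any fit, and its log2 fold change of -0.10 lay between -0.21 and 0.01 over the fits without 1 tumour, turning sign without parental tumour 2.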
